A study of Mus musculus with 2 samples.

Results

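The genes described here were 9 genes of melanin synthesis and of the melanosome, the organelle in which pigment cells make and store melanin, chosen by name from the 23284 gene symbols listed for 2 mouse melanoma cultures. They were the tyrosinase family enzyme genes Tyr, Tyrp1 and Dct, the melanosome structural and membrane protein genes Pmel and Mlana, and the melanosome membrane transporter and receptor genes Oca2, Slc45a2, Slc24a5 and Gpr143. The cultures were B16/BL6, an invasive subline of B16 grown in RPMI medium, and B16, a melanoma line of C57BL/6 origin grown in DMEM; both media held fetal bovine serum and penicillin with streptomycin. The study searched for genes related to metastasis by comparing their transcriptomes, with 1 RNA sequencing library per line. With a single library of each line, the values carry no replicate error, differences are descriptions without a test, and the effects of line and growth medium cannot be told apart.

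Melanin is made from tyrosine. Tyrosinase catalyses the first and rate-limiting oxidation, and its relatives dopachrome tautomerase (Dct) and Tyrp1 act on later intermediates of the dark pigment, eumelanin. Melanin is deposited on amyloid fibrils of the Pmel protein. Transporters and channels of the melanosome membrane set the ion content and acidity in which tyrosinase works. Many of these genes are known targets of MITF, the master transcription factor of melanocytes, which binds short DNA sequences of the form CATGTG or CACGTG.

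The promoters of the 3 enzyme genes are shown because all 3 held the same 9 bases, TCATGTGCT, a core of the element known as the M-box. Promoter windows, from 250 bases before to 50 bases after a gene's start, were taken from RefSeq (build GRCm38.p6) and matched 5 of the 9 genes by symbol. They are printed in the direction of transcription, and capitals mark every CATGTG on either strand (CACATG where it lies on the opposite strand) and every CACGTG.
Tyr promoter, chr7:87493463-87493762, minus strand: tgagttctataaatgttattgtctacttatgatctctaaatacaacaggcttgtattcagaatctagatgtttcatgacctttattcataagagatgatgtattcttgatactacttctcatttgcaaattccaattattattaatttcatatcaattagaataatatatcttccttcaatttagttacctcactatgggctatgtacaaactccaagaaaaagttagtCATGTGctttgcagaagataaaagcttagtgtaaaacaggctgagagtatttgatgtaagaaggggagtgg
Tyrp1 promoter, chr4:80833963-80834262, plus strand: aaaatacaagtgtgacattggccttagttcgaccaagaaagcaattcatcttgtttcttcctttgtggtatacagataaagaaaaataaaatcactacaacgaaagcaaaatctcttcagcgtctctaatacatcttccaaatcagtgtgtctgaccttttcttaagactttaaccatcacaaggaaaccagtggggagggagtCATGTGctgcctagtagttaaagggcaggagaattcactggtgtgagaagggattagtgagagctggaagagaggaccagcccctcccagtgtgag
Dct promoter, chr14:118052197-118052496, minus strand: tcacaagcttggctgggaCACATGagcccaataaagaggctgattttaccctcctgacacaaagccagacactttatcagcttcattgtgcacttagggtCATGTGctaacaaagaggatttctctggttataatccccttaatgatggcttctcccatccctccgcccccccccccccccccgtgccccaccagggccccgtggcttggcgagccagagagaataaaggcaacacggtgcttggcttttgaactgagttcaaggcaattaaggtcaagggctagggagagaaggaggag
The 9 bases were searched for after these windows had been read. Relative to the start site each window was built on, the CATGTG within them began 21 bases upstream in Tyr, 46 in Tyrp1 and 150 in Dct, and Dct held a further copy on the opposite strand 232 bases upstream. The Tyrp1 window was built on a start 90 bases inside the RefSeq extent of the gene, so its CATGTG begins 44 bases after the first base of that extent. Of 32851 promoter windows in the table, 0.408% held TCATGTGCT, 14.2% held CATGTG, 7.15% held CACGTG and 72.3% held the general form CANNTG, each searched on both strands. The windows holding CATGTG are among those holding CANNTG. The windows of Oca2 and Slc24a5 each held CATGTG once, on the opposite strand and outside the 9 bases, and are shown in part for contrast.
Oca2, bases 45 to 90 of the window chr7:56239509-56239808, plus strand: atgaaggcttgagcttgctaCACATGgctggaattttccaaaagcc
Slc24a5, bases 218 to 263 of the window chr2:125067877-125068176, plus strand: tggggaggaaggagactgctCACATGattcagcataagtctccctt
None of the 5 windows held CACGTG. A match is a description of the sequence only, not a site at which a protein was shown to bind.

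Expression was given in FPKM (fragments for each kilobase of transcript, scaled by library size), so levels of different genes can be set side by side within a library. All 9 genes were above 10 FPKM in both libraries, well over the 1 FPKM in at least 1 library used as the minimum for an expressed gene. Differences are on the log2(FPKM + 1) scale, the B16/BL6 value minus the B16 value. On this scale 8 of the 9 genes were higher in B16/BL6, against 50.6% of the 10709 expressed genes, and 1, Oca2, was lower, against 49.4%. At least 2-fold higher were 2 genes, Tyr and Pmel, against 3.31% of the expressed genes, and 0 were at least 2-fold lower, against 3.16% of the expressed genes. With each library rescaled to a sum of 1000000 (the TPM scale), 3.28% of expressed genes were at least 2-fold higher and 5.18% at least 2-fold lower, and Pmel was under 2-fold. The median difference of the 9 genes was 0.61, against 0.01 for all expressed genes. Abundant genes in general lay slightly above 0. The median difference was 0.22 among 48 genes averaging 1000 FPKM or more, a group that includes Tyrp1, Dct, Pmel and Mlana, and 0.18 among 900 genes averaging 100 to 1000 FPKM.

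**Figure D1:**
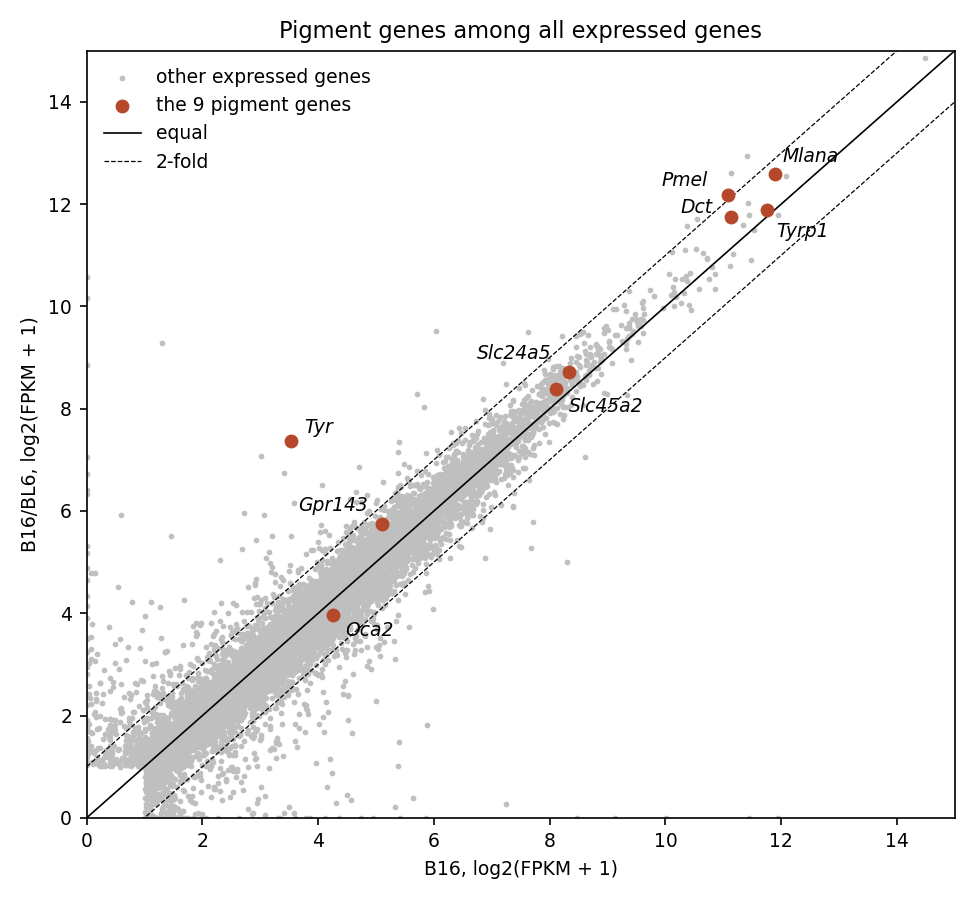
Level of each expressed gene in B16/BL6 (vertical axis) and B16 (horizontal axis), both as log2(FPKM + 1), with the 9 pigment genes in red and 1 library per line. Tyr stands far above the upper dashed line that marks 2-fold, Pmel lies just above it, and the other 7 genes lie between the dashed lines.

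Together the 9 genes made up 3.37% of the FPKM sum of B16/BL6 and 2.46% of that of B16, with summed levels of 18997 FPKM and 12326 FPKM. Most of this came from Mlana, Pmel, Tyrp1 and Dct, each above 1000 FPKM in both libraries. In B16/BL6 the order from the highest level was Mlana, Pmel, Tyrp1, Dct, Slc24a5, Slc45a2, Tyr, Gpr143 and Oca2. In B16 it was Mlana, Tyrp1, Dct, Pmel, Slc24a5, Slc45a2, Gpr143, Oca2 and Tyr. Thus Tyr stood seventh of the 9 genes in B16/BL6 and last in B16, while Pmel stood second in B16/BL6 and below Tyrp1 and Dct in B16. Whether neighbours in these orders differ beyond replicate error could not be assessed with 1 library each.

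**Figure D2:**
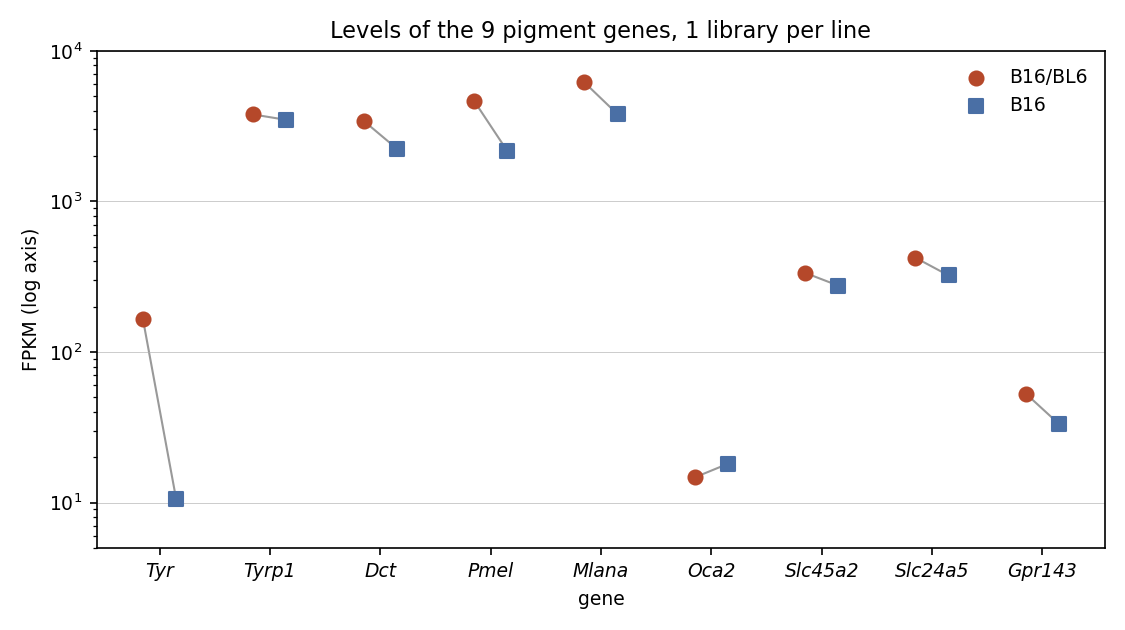
FPKM of the 9 pigment genes on a log axis, with B16/BL6 as circles and B16 as squares, 1 library each, joined by a line. The steepest line is that of Tyr (164 FPKM in B16/BL6, 10.6 FPKM in B16), and the line of Oca2 alone slopes the other way (14.7 and 18.1 FPKM).

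Among the enzymes, the gene of tyrosinase itself differed most. Tyr (chromosome 7, 87424771 to 87493512, minus strand, GRCm38 coordinates as for all genes below) stood at 164 FPKM in B16/BL6 and 10.6 FPKM in B16, a ratio of 15.5 and a log2 difference of 3.83. Of all expressed genes, 21 had a larger difference toward B16/BL6. By level it was the 550th gene of B16/BL6 and the 6368th of B16. By an approximate estimate of library depth, about 11035 fragments of Tyr were behind the B16/BL6 value and about 643 behind the B16 value.

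The other enzyme genes were abundant in both lines and differed much less. Tyrp1 (chromosome 4, 80834123 to 80851736, plus strand), whose protein is thought to stabilise tyrosinase as well as to act on a later intermediate, was at 3773 FPKM in B16/BL6 and 3474 FPKM in B16, a log2 difference of 0.12. It was the 8th most abundant gene of B16/BL6 and the 6th of B16, and on the TPM scale, where the median of all genes was -0.16, its difference turned to -0.05. Dct (chromosome 14, 118012790 to 118052246, minus strand) was at 3423 FPKM in B16/BL6 and 2238 FPKM in B16, a log2 difference of 0.61. The balance among the enzyme genes was therefore unlike in the libraries. Per length, Tyrp1 was 23.0 times as abundant as Tyr in B16/BL6 and 327.5 times in B16, and Dct was 20.8 times as abundant as Tyr in B16/BL6 and 211 times in B16. Between Tyrp1 and Dct the ratio was 1.10 in B16/BL6 and 1.55 in B16. The 3 promoters that share TCATGTGCT thus belonged to genes whose log2 differences spread from 0.12 to 3.83.

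Both structural genes were higher in B16/BL6. Pmel (chromosome 10, 128695888 to 128720238, plus strand), the gene of the fibril protein, was at 4651 FPKM in B16/BL6 and 2166 FPKM in B16, a ratio of 2.15 and a log2 difference of 1.10, with 300 expressed genes showing a larger one. It was the 6th most abundant gene of B16/BL6 and the 18th of B16. Mlana (chromosome 19, 29697541 to 29708447, plus strand), which encodes Melan-A, a small membrane protein that binds Pmel and aids its maturation, was at 6160 FPKM in B16/BL6 and 3789 FPKM in B16, a log2 difference of 0.70. It was the 4th most abundant gene of B16/BL6 and the 5th of B16. Pmel exceeded Tyrp1 by a ratio of 1.23 in B16/BL6, and in B16 it stood at 0.623 of Tyrp1.

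The membrane transporter and receptor genes were at lower levels, and all 4 were within 2-fold. Slc24a5 (chromosome 2, 125068127 to 125088677, plus strand), which encodes a potassium-dependent sodium and calcium exchanger of the pigment cell, was at 422 FPKM in B16/BL6 and 322 FPKM in B16, a log2 difference of 0.39. Slc45a2 (chromosome 15, 11000721 to 11029233, plus strand), a transporter gene needed for a melanosome pH at which tyrosinase works, was at 335 FPKM in B16/BL6 and 276 FPKM in B16, a difference of 0.28. Gpr143 (chromosome X, 152781921 to 152808651, plus strand), the gene of ocular albinism, encodes a receptor of the melanosome membrane and was at 52.8 FPKM in B16/BL6 and 33.2 FPKM in B16, a difference of 0.65. Slc24a5 and Slc45a2 kept a ratio near 1 to each other, 1.26 in B16/BL6 and 1.17 in B16.

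Oca2 (chromosome 7, 56239593 to 56536518, plus strand), the pink-eyed dilution gene, which encodes a protein required for the melanosomal chloride current, went the other way from the rest. It was at 14.7 FPKM in B16/BL6 and 18.1 FPKM in B16, a log2 difference of -0.28, and 77.8% of expressed genes had a higher difference. About 511 fragments were behind its B16/BL6 value and about 568 behind its B16 value. It lies on the same chromosome as Tyr, 30.9 megabases away. Tyr was 11.2 times as abundant as Oca2 in B16/BL6 and 0.587 times in B16.

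**Figure D3:**
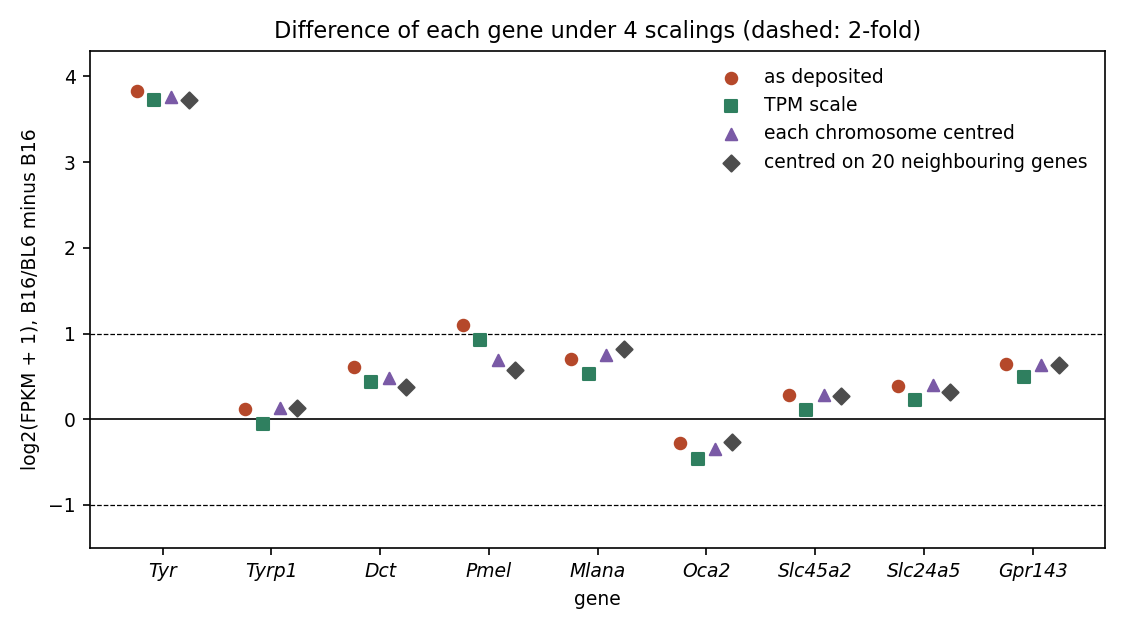
Log2 difference of each gene, B16/BL6 minus B16, from the deposited FPKM, on the TPM scale, after subtraction of its chromosome's median, and with the median of 20 neighbouring genes subtracted. Tyr lies between 3.72 and 3.83 in all 4 and Oca2 below 0, Pmel is under the dashed 2-fold line in 3 of them, and Tyrp1 is close to 0 with a negative value on the TPM scale.

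The genes beside each of the 9 were examined to see whether a difference was shared with the surrounding chromosome. The neighbours of Tyr did not share its difference: the median of the 20 nearest expressed genes, 10 on each side, was 0.11, and none of the 20 had a difference as large. Its neighbour Nox4, which encodes an NADPH oxidase and lies 26.1 kb away, was lower in B16/BL6, at 1.64 FPKM against 4.92 FPKM in B16. On the other side Ctsc, the gene of the protease cathepsin C, was at 23.3 FPKM in B16/BL6 and 29.0 FPKM in B16.

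The neighbours of Pmel were mostly higher in B16/BL6 as well, but only 1, Myl6 (log2 difference 1.18), had a larger difference than Pmel. Of the 20 expressed genes nearest to Pmel, which spanned 0.429 megabases, 18 were above 0, with a median of 0.52. The median over the 528 expressed genes of chromosome 10 was 0.41, against 0.01 over all expressed genes. Cdk2, a cell cycle kinase gene on the opposite strand that overlaps the start of Pmel by 837 bases in GENCODE M21 and lies wholly within the longer RefSeq extent of Pmel, was at 228 FPKM in B16/BL6 and 140 FPKM in B16. Rab5b, a GTPase gene that overlaps the RefSeq extent of Pmel but not its GENCODE extent, was at 20.5 FPKM in B16/BL6 and 15.3 FPKM in B16. Beyond it Suox, a sulfite oxidase gene 21970 bases before the RefSeq extent of Pmel, was at 1.46 FPKM in B16/BL6 and 0.635 FPKM in B16. Dgka, a lipid kinase gene on the opposite strand that overlaps the end of Pmel by 105 bases in GENCODE M21, went the other way, at 0.473 FPKM in B16/BL6 and 1.01 FPKM in B16. Wibg, 27.6 kb beyond the end of Pmel, was at 28.8 FPKM in B16/BL6 and 18.2 FPKM in B16. With its chromosome's median subtracted, the log2 difference of Pmel was 0.69, and with the median of its 20 neighbours subtracted it was 0.58, both under 2-fold. The part of the chromosome in the difference of Pmel was not tested.

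Around the other genes the medians of the 20 neighbours lay between -0.12 (Mlana) and 0.24 (Dct, with 18 of 20 above 0). Single neighbours differed strongly without the pigment gene doing so. Sema6d, a semaphorin gene 400.3 kb before Slc24a5, was at 4.58 FPKM in B16/BL6 and 0.319 FPKM in B16, and the transcription factor gene Foxr2, 306 kb after Gpr143, was listed at 0 in B16/BL6 and at 12.9 FPKM in B16. Slc24a5 overlaps Myef2 on the opposite strand by 4050 bases in GENCODE M21, and by more in RefSeq, where Myef2 begins at 125080975. The libraries were made with a stranded kit, but the sources used here do not say whether counting used strand. Reads in the overlaps of Pmel with Cdk2, Dgka and, by the RefSeq extent, Rab5b, and of Slc24a5 with Myef2, may therefore not have been told apart.

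**Figure D4:**
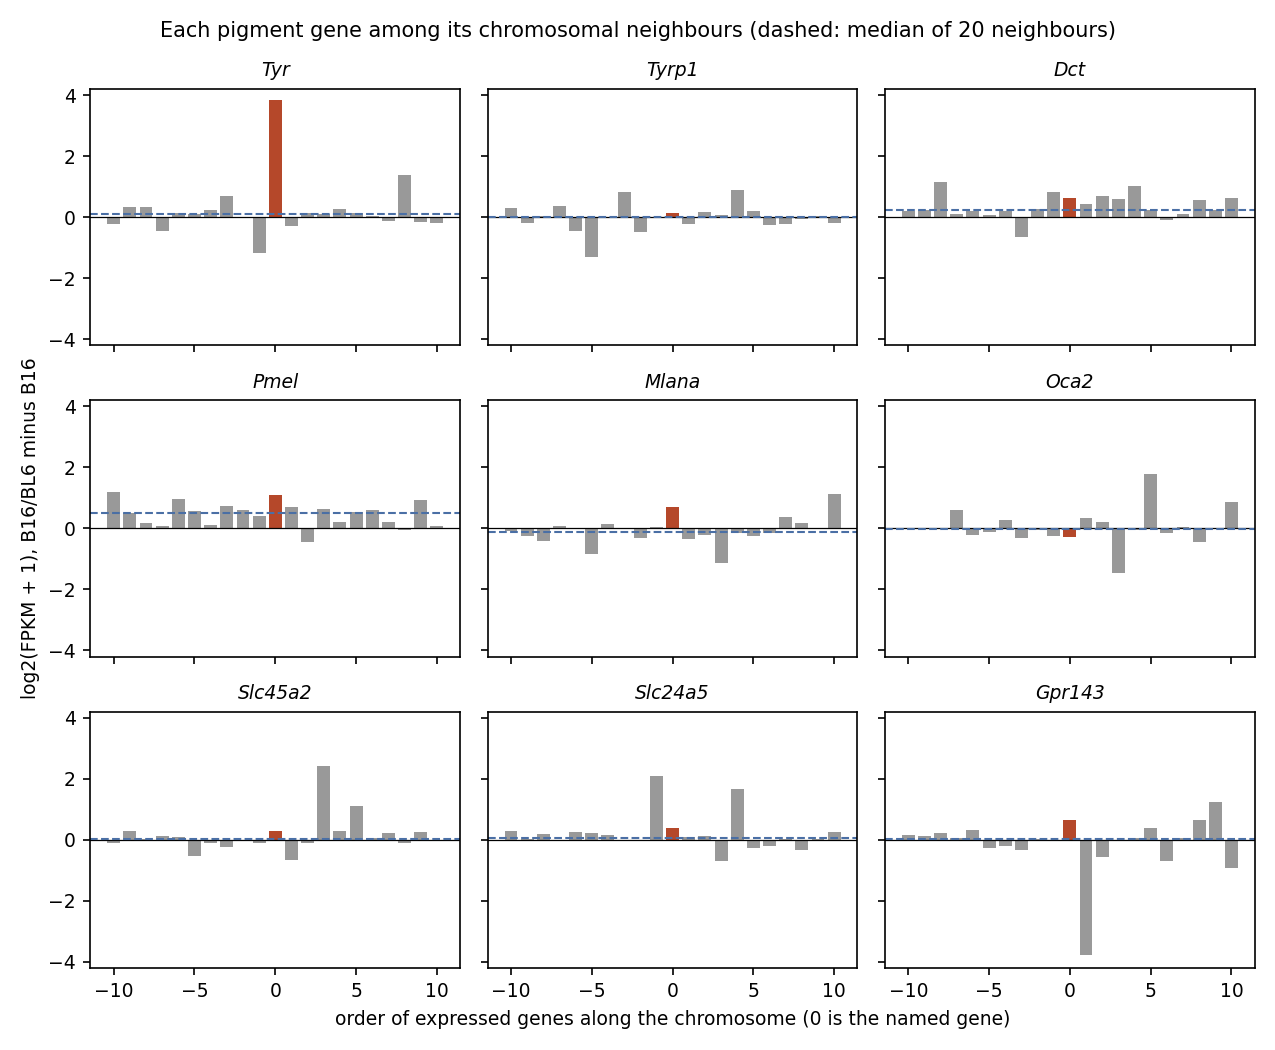
Log2 difference, B16/BL6 minus B16, of each pigment gene (red) and of the 10 expressed genes on each side of it (grey) in chromosomal order, with the median of those 20 genes dashed. Tyr stands alone among its neighbours, whereas 18 of the 20 genes around Pmel are above 0 with a median of 0.52.

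Genes with other roles in pigmentation were grouped into 6 lists of 97 genes in all, of which 87 were expressed. At least 2-fold higher in B16/BL6 were 4 of the 87 (4.60%, against 3.31% of all expressed genes) and at least 2-fold lower were 0 (against 3.16%). The medians of the 6 lists ran from -0.06 to 0.37, all below the median of 0.61 of the 9 pigment genes. The 12 expressed transcription factor genes were all within 2-fold, with a median of 0.08. Mitf was at 90.7 FPKM in B16/BL6 and 97.1 FPKM in B16, and Sox10, its upstream activator in the melanocyte lineage, at 262 FPKM in B16/BL6 and 308 FPKM in B16. Of 6 expressed receptor genes, 1 was at least 2-fold higher, Kit, which encodes the receptor for stem cell factor. Kit was at 21.9 FPKM in B16/BL6 and 0.457 FPKM in B16. It thus counted as expressed through B16/BL6 alone. The melanocortin receptor gene Mc1r, which raises cyclic AMP and pigment synthesis in melanocytes, was at 50.4 FPKM in B16/BL6 and 67.1 FPKM in B16, and Met, whose product binds hepatocyte growth factor, at 69.0 FPKM in B16/BL6 and 49.7 FPKM in B16.

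Among the 69 expressed genes that feed, build, load and move the melanosome, 3 were at least 2-fold higher (4.35%), a share near the 3.31% of all expressed genes. Of 18 expressed genes of substrate and ion supply, 1 was at least 2-fold higher, the cation channel gene Trpm1, at 142 FPKM in B16/BL6 and 40.7 FPKM in B16. The melanosomal glycoprotein gene Gpnmb, a relative of Pmel, was lower in B16/BL6, at 1764 FPKM in B16/BL6 and 2217 FPKM in B16, and Mif, whose protein can convert dopachrome in the test tube, was at 786 FPKM in B16/BL6 and 759 FPKM in B16. The 11 genes of Pmel processing and fibril formation were within 2-fold with a median of 0.13. Among them the lipoprotein gene Apoe, whose protein helps Pmel fibrils to form, was at 983 FPKM in B16/BL6 and 544 FPKM in B16. Cd63, a tetraspanin gene that sorts Pmel fragments, was at 728 FPKM in B16/BL6 and 383 FPKM in B16. Cd63 is also among the 20 expressed genes nearest to Pmel, whose median difference was 0.52.

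Of 29 expressed genes that sort enzymes to melanosomes, 19 were below 0, against 49.4% of all expressed genes, and the median was -0.06. In this list 1 gene was at least 2-fold higher, against 3.31% of all expressed genes. This was Rab32, at 93.3 FPKM in B16/BL6 and 34.0 FPKM in B16; its partner in the delivery of tyrosinase and Tyrp1, Rab38, was at 330.3 FPKM in B16/BL6 and 302 FPKM in B16. Rab7, a late endosome GTPase gene, was at 253 FPKM in B16/BL6 and 203 FPKM in B16. Of 11 genes of melanosome transport, 1 was at least 2-fold higher, the GTPase gene Rab17, at 5.83 FPKM in B16/BL6 and 1.21 FPKM in B16. Mlph, the melanophilin gene that links melanosomes to myosin, was at 207 FPKM in B16/BL6 and 177 FPKM in B16, and Rac1, a GTPase gene of the actin cytoskeleton, at 297 FPKM in B16/BL6 and 288 FPKM in B16.

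**Figure D5:**
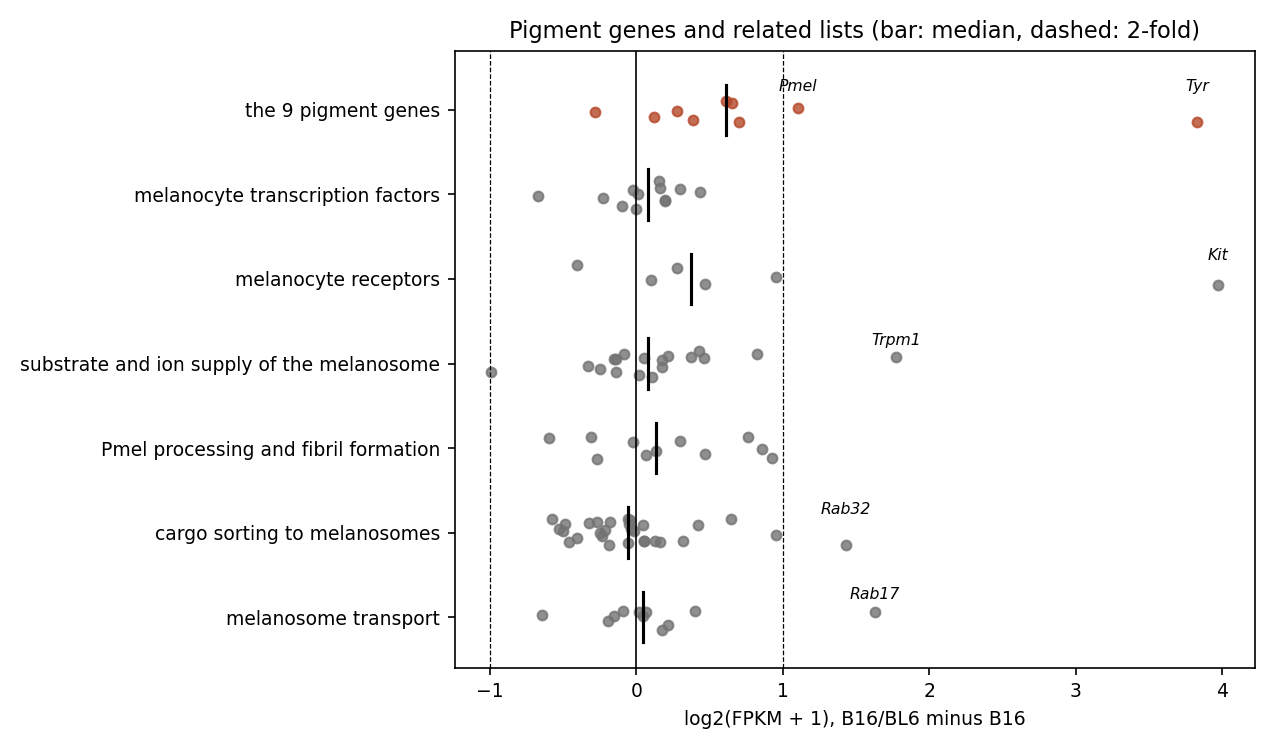
Log2 difference, B16/BL6 minus B16, of the 9 pigment genes (red) and of the expressed members of 6 related lists (grey), 1 point per gene, with list medians as bars. The median of the 9 genes, 0.61, lies to the right of all 6 list medians, and the named points are those at 2-fold or more.

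Markers of several cell types were examined in both cultures. All 12 melanocyte markers (the 9 genes with Mitf, Sox10 and Mc1r) were above 1 FPKM in both libraries, whereas the 6 keratinocyte markers were all listed at 0 in both. Not every gene of the melanocyte transcription factor and receptor lists was expressed. Lef1, Foxd3, Otx2, Ednrb and Fgfr2 were listed at 0 in both libraries, and Irf4 was below 1 FPKM in both. The 6 fibroblast markers summed to 0.729 FPKM in B16/BL6 and 0.532 FPKM in B16, and the 6 endothelial markers to 0.0191 and 0.0719 FPKM. The 6 macrophage and leukocyte markers summed to 5.69 and 5.60 FPKM, and 2 of them, Lyz2 and Cd68, were above 1 FPKM in both libraries. An abundant control, the actin gene Actb, was at 1747 FPKM in B16/BL6 and 1789 FPKM in B16. Gapdh, a glycolytic gene that cells generally use strongly and that has many pseudogene copies, was listed at 0.561 FPKM in B16/BL6 and 0.531 FPKM in B16. Why it was listed so low was not tested. Low or 0 values of other genes, the markers above among them, may therefore not always mean a low transcript. None of the 9 pigment genes was as low as Gapdh.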

How the data were processed

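Total RNA of 1 culture of each line was made into stranded mRNA libraries, per the labels' protocols. The authors deposited 1 FPKM value per gene symbol and library, per the file headers. Per the submitters' processing notes, the build was mm10 and the tools included Cufflinks 2.2.1, TopHat2 2.0.13, Bowtie2 2.2.3 and SAMtools 0.1.19, listed without role or settings. The sources used here give neither the annotation, the strand setting nor the read counts. No count test was run, since FPKM is not a count, and there was no test between single libraries.

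The 9 genes and the 6 lists were chosen with earlier results of these data known. Named were the 9 genes, every list member past 2-fold, up to 2 further members per list by mean level, nearest expressed neighbours of interest, and Mitf, Sox10, Actb and Gapdh. Sequence-matched genes of the closing observations, overlapping genes and list genes that crossed 2-fold under an alternative were named after their values were seen. Older symbols were used for 5 genes of the lists and markers. Protein sequences were not used here.

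Depth is not recorded. Of 379 genes above 0 and below 0.1 FPKM in each library, 150 shared 1 ratio between the lines, 0.906 (B16/BL6 over B16, to 3 decimals), which gives B16/BL6 a relative depth of 1.1 if scaling was by the fragments of each library. Genes under 0.2 FPKM with 1 annotated transcript over 1500 bases gave about 11.1 fragments in B16/BL6 and 10 in B16, in units of 1000000, taking estimates of 8 to 14 such units as genes of 1 fragment. Each depth is the median of the estimates within that range, so it depends on the range chosen. Fragment numbers in the text rest on these depths and on GENCODE M21 transcript lengths, and are approximate.

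Gene positions came from RefSeq for GRCm38 (mm10), matched by symbol or a unique synonym (23035 symbols placed, 10639 of the expressed ones). Values were computed with Python 3.11.15, pandas 2.3.3 and numpy 2.4.6. The procedure was run on simulated data without noise, a check of its arithmetic only and not of the differences reported.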

Additional observations from a re-analysis of the deposited data

How the results depend on the processing

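The 9 differences were recomputed on the TPM scale, after upper-quartile scaling, with each chromosome centred, with pseudocounts of 0.1 and 5, with no minimum and with a minimum of 5 FPKM, and, chosen after the data were seen, with the median of 20 neighbours subtracted. Tyr ranged from 3.44 to 3.94, Oca2 from -0.46 to -0.23, Mlana from 0.53 to 0.82, Gpr143 from 0.49 to 0.67, Dct from 0.38 to 0.61, Slc24a5 from 0.22 to 0.40 and Slc45a2 from 0.11 to 0.28, the last 2 lowest on the TPM scale. Pmel fell under 2-fold on the TPM scale (0.93), with chromosomes centred (0.69) and with neighbours subtracted (0.58), which left 1 gene at least 2-fold higher in each case, and Tyrp1 turned to -0.05 on the TPM scale. The median of the 9 genes was 0.44 on the TPM scale and 0.38 with neighbours subtracted. Over all expressed genes, the numbers at least 2-fold higher and lower, 354 and 338 as deposited, were 369 and 583 on the TPM scale (38.8% of them higher, against 51.2% as deposited), 492 and 511 with a pseudocount of 0.1, 151 and 118 with one of 5, and 246 and 212 with a minimum of 5 FPKM. Among the lists, Fgfr1 joined Kit past 2-fold on the TPM scale, making 2 receptor genes higher, and 2 supply genes, Slc24a4 and Gch1, were lower there. Slc24a4 alone was lower, 1 gene, after upper-quartile scaling and with chromosomes centred. No paired analysis was possible because each line had 1 library, and no replicate could be left out. The approximate depth puts at least about 511 fragments (Oca2) behind each of the 9 values in B16/BL6 and about 528 (Gpr143) behind each in B16.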

Other observations

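Counting the 3 enzyme genes, 112 genes held TCATGTGCT in a RefSeq promoter window. Of the 112 genes, 41 were listed with FPKM values and 12 were expressed, the 3 enzyme genes included. Of the 12, 10 were above 0, 2 passed 2-fold upward in B16/BL6 and 0 downward, with a median log2 difference of 0.53. Over all expressed genes, 50.6% were above 0, 3.31% passed 2-fold upward and 3.16% downward, and the median was 0.01. Besides Tyr, the gene past 2-fold was Ppargc1a, at 5.18 FPKM in B16/BL6 and 0.825 FPKM in B16. It encodes the mitochondrial coactivator PGC-1alpha, a known target of MITF in human melanoma. In B16 Ppargc1a was under the 1 FPKM minimum, so it counted as expressed through B16/BL6 alone. The same held for Tmem140 (1.38 FPKM in B16/BL6, 0.323 FPKM in B16), whereas Gm3414 counted through B16 alone. Akt2, a kinase gene, was at 25.2 FPKM in B16/BL6 and 16.9 FPKM in B16, and Sec31a, a gene of the secretory vesicle coat, at 46.9 FPKM in B16/BL6 and 42.2 FPKM in B16. Pdxk was nearly equal, at 36.6 FPKM in B16/BL6 and 35.1 FPKM in B16. Those below 0 were Gm3414, at 0.820 FPKM in B16/BL6 and 1.40 FPKM in B16, and Rbm43, at 9.92 FPKM in B16/BL6 and 10.3 FPKM in B16. The 12 genes were grouped by a sequence picked after the enzyme promoters had been read, and the enzyme genes are 3 of the 12. All 3 are among the 10 above 0, and Tyr is among the 2 past 2-fold. The counts are therefore a description only and cannot serve as a test against all expressed genes.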
